A study of Homo sapiens with 6 samples.

Results

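Among the 26025 genes of the deposited table, 7 are described here: the keratin genes KRT7, KRT8, KRT18, KRT19, KRT80 and KRT81, and KRTAP2-3, which encodes a keratin-associated protein of the hair shaft. They were picked by symbol, and selected with their measured difference between the groups already known, so their values in this contrast are a description and carry no test. The libraries were 3 Ctrl and 3 NE libraries of the established human line NCI-H1299, grown from a non-small cell carcinoma of the lung. Cells of both groups were starved of serum for 8 to 12 h and then kept for 48 h in medium with 2% fetal bovine serum. The NE cells received 10 µM norepinephrine, the neurotransmitter of sympathetic nerves, and the Ctrl cells vehicle, which the labels name both as DMSO and as PBS. The comparison asks which keratin transcripts differ between the cells with and without the stress neurotransmitter. Nothing in the labels says that the libraries of a group came from separate cultures, so every p below measures only the spread between these libraries.

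Keratins are the intermediate filament proteins of epithelial cells. A filament is built from pairs of a type I and a type II chain, and a chain without its partner is usually broken down. KRT8 (type II) and KRT18 (type I) form the pair of simple epithelia, where KRT7 and KRT19 are common additional chains. Carcinomas of the lung often keep these simple keratins, and antibodies to them are used to recognise carcinoma cells. Filaments are anchored at desmosomes and hemidesmosomes by linker proteins of the plakin family. Keratin-associated proteins normally embed the hard keratins of hair, a family that includes KRT81.

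Each deposited value is the count of a gene scaled by the size factor of its library, called a normalized count here. Between 16852751 and 17979206 reads lay on genes in each library. Ctrl replicate 3 stood apart, with 7305 genes at 0 against 4829 and 4833 in the other Ctrl libraries and 3954 to 4416 in the NE libraries, so results that rest on it are given with and without it. The 15013 genes whose normalized counts averaged 10 or more over the 6 libraries were compared with limma on log2(normalized count + 1). Calls required both a log2 fold change of 1 or more in size and a p, adjusted after Benjamini and Hochberg, under 0.05. On this scale 983 genes were called lower in NE (6.55% of those tested) and 1121 higher (7.47%). Without Ctrl replicate 3 the shares were 10.1% lower and 10.7% higher. Every NE library lay below every Ctrl library for 28.9% of the tested genes and above for 29.7%.

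The epithelial label was checked against 4 markers. KRT8 and KRT18 were abundant, whereas EPCAM, an epithelial adhesion molecule, lay between 0 and 4.84 normalized counts and CDH1, the E-cadherin of epithelial junctions, between 0 and 3.92. The mesenchymal filament gene VIM was present in each library at 45300 to 78252 normalized counts. The fibroblast markers COL1A1, DCN and LUM summed to 23.5 to 35.6 in Ctrl and 13.7 to 27.7 in NE libraries, with LUM at 0 in 5 of the 6. Of these, COL1A1 fell (log2 fold change -1.26, adjusted p = 0.0251 by limma), a call that was lost when Ctrl replicate 1, Ctrl replicate 2, NE replicate 1 or NE replicate 2 was left out, at log2 fold changes of -1.16, -1.38, -1.25 and -1.16. With GC content removed COL1A1 was at -0.68 (adjusted p = 0.225 by limma), and its NE mean alone was under the filter. DCN was at 5.90 ± 5.71 in Ctrl and 11.0 ± 8.03 in NE, and its groups overlapped. The endothelial markers PECAM1 and CDH5 summed to 28.0 to 31.4 and 16.5 to 36.6, and the 1 of 3 immune markers in the table, CD68, to at most 2.09. The alveolar and airway markers found in the table, SFTPB and NKX2-1 (2 of 4), summed to at most 3.87. Whether other cells had a part in the keratin differences was not tested, and in bulk RNA fewer cells of a type and less RNA per cell cannot be told apart.

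The type II chains KRT80, KRT7, KRT81 and KRT8 and the type I chain KRT18 are encoded on chromosome 12, and KRT19 and KRTAP2-3 on chromosome 17. In Ctrl cells the levels per exon length, recomputed as FPKM (reads scaled to merged exon length and to the reads of the library), ran from KRT18 at 405.7 ± 65.4 through KRT8 at 100.2 ± 17.2 to KRT80 at 29.5 ± 2.05 (SD, n = 3). KRTAP2-3 followed at 1.48 ± 0.875 and KRT7 at 0.716 ± 0.211, and the ranges of these neighbours overlapped. KRT19 at 0.170 ± 0.0427 and KRT81 at 0.0970 ± 0.0884 were lowest and overlapped as well. In NE cells the order began with the same 3 genes, KRT18 at 144.0 ± 5.36, KRT8 at 52.3 ± 3.45 and KRT80 at 33.0 ± 0.559 FPKM. KRT7 came next at 0.282 ± 0.0452, followed by KRT81 at 0.152 ± 0.121 and KRT19 at 0.0668 ± 0.0579. The ranges of KRT7 and KRT81 overlapped, as did those of KRT81 and KRT19, and KRTAP2-3 was at 0 reads in each NE library. NCI-H1299 thus carried 1 abundant simple pair, 1 further chain at an intermediate level and 4 genes near the bottom of the scale.

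Of the 7 genes, 5 passed the filter and 4 of these met the criteria of a call, each lower in NE: KRT7, KRT8, KRT18 and KRTAP2-3. None was higher, and 5 of the 7, these and KRT19, had each NE library below each Ctrl library. KRT19 and KRT81 were under the minimum mean. Because the genes were chosen on this contrast, nothing is read from these counts against the shares of 6.55% and 28.9% among all tested genes. The median log2 fold change of the 5 was -1.40, and 0.01 over all tested genes; with KRTAP2-3 at its bound the median stayed that of KRT7. The threshold on the fold lay closest to KRT8, just inside it at -1.06, and KRT80 was the only one of the 5 outside it.

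**Figure D1:**
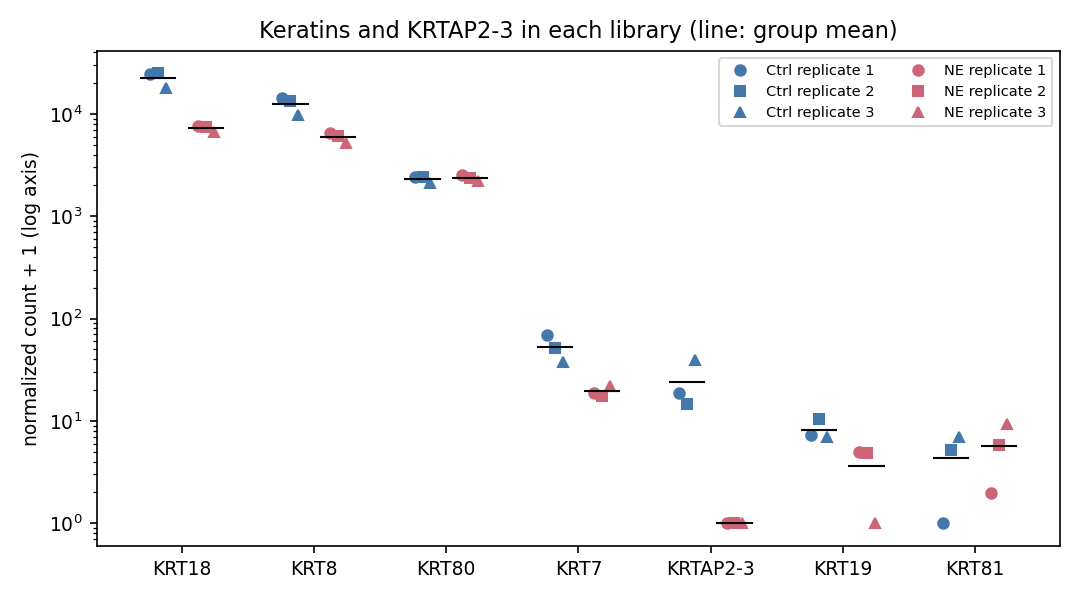
Normalized count + 1 (log axis) of the 7 genes in each of the 3 Ctrl and 3 NE libraries, with a line at each group mean. KRT18 and KRT8 lie lower in all NE libraries, KRT80 overlaps between the groups, and KRTAP2-3 is at 0 in all NE libraries.

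KRT18 (ENSG00000111057, hg38 chr12:52948871-52952906, plus strand), the type I chain of simple epithelia, had 24623, 24941 and 17852 normalized counts in Ctrl replicates 1 to 3. In NE replicates 1 to 3 it had 7602, 7463 and 6679. The groups did not overlap, and the lowest Ctrl library, replicate 3, was still above the highest NE library. The mean was 3.10-fold lower in NE (22472 ± 4004 against 7248 ± 497.8, SD, n = 3), with a log2 fold change of -1.62 (SE 0.140). Without Ctrl replicate 3 the difference was -1.78 (SE 0.0844).

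KRT8 (ENSG00000170421, minus strand, canonical transcript at chr12:52897191-52905076), the type II partner of KRT18, had 14180, 13383 and 9793 normalized counts in Ctrl replicates 1 to 3. The NE replicates had 6448, 6042 and 5232. Again the groups did not overlap and Ctrl replicate 3 was the lowest Ctrl library. The mean was 2.11-fold lower in NE (12452 ± 2337 against 5907 ± 618.7), with a log2 fold change of -1.06 (SE 0.151) and of -1.23 (SE 0.0942) without Ctrl replicate 3. It fell short of the fold criterion without Ctrl replicate 1 (-0.96) and without NE replicate 3 (-0.98).

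The partners did not keep 1 ratio. KRT18 stood to KRT8, as FPKM on merged exons, at 3.89, 4.18 and 4.09 in the Ctrl libraries and at 2.64, 2.77 and 2.86 in the NE libraries. All 3 NE ratios lay below all 3 Ctrl ratios (4.05 ± 0.146 against 2.76 ± 0.110). The scale of this ratio depends on the length used: the annotation gives KRT8 long additional exons, and with the canonical transcripts the ratio was 2.28 ± 0.0820 in Ctrl and 1.55 ± 0.0618 in NE. The 2 genes lie side by side, and 525 bases of their exons (7.63% of those of KRT8) overlap on opposite strands. Of the stretches of the KRT18 transcript that are as long as a sequencing read, 15.0% also occur in a transcript annotated to KRT8. The strand setting of the counting is not given in the sources used here, and how much this overlap moved either count was not tested.

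**Figure D2:**
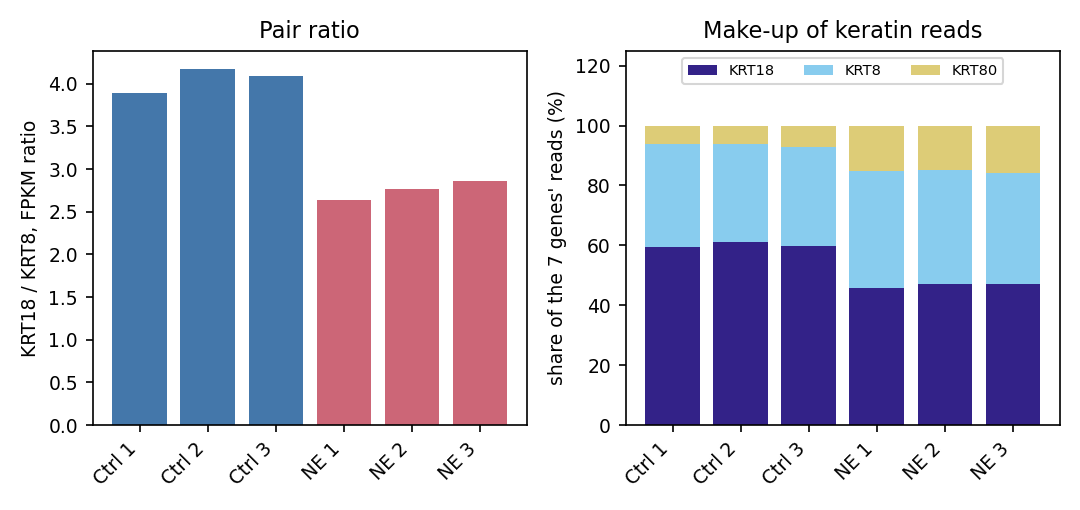
Left, the KRT18 to KRT8 ratio of FPKM in each library. Right, the share (%) of the 7 genes' reads taken by KRT18, KRT8 and KRT80. The ratio is 3.89 to 4.18 in Ctrl and 2.64 to 2.86 in NE libraries, and the KRT80 share is larger in each NE library.

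KRT80 (ENSG00000167767, chr12:52168996-52192014, minus strand), a type II epithelial keratin reported near desmosomal plaques, had 2441, 2440 and 2088 normalized counts in Ctrl replicates 1 to 3. The NE replicates had 2507, 2350 and 2227. The ranges overlapped, and the log2 fold change was 0.03 (SE 0.108), or -0.05 (SE 0.0822) without Ctrl replicate 3. As the KRT8 and KRT18 reads were fewer in NE, KRT80 made up 6.29% ± 0.615 of the reads of the 7 genes in Ctrl and 15.2% ± 0.468 in NE. KRT18 went from 60.2% ± 0.793 to 46.7% ± 0.708, and KRT8 from 33.3% ± 0.867 to 38.0% ± 0.982. The 7 genes together took 0.227%, 0.224% and 0.169% of the gene reads of the Ctrl libraries and 0.0968%, 0.0973% and 0.0901% of those of the NE libraries.

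KRT7 (ENSG00000135480, chr12:52232520-52252186, plus strand), a type II chain of glandular and ductal epithelia, was low throughout. It had 68.1, 50.8 and 36.3 normalized counts in Ctrl replicates 1 to 3 and 17.8, 16.5 and 21.0 in NE replicates 1 to 3. The groups did not overlap, with a mean 2.81-fold lower in NE (51.7 ± 15.9 against 18.4 ± 2.34). The log2 fold change was -1.40 (SE 0.325), and -1.63 (SE 0.329) without Ctrl replicate 3. Its antisense neighbour KRT7-AS shares 282 exon bases with it and had at most 3.66 normalized counts.

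KRTAP2-3 (ENSG00000212724, chr17:41059240-41060114, minus strand) had 17, 13 and 39 reads in Ctrl replicates 1 to 3 and none in any NE library. In normalized counts these were 17.8, 13.5 and 38.2, so here Ctrl replicate 3 was the highest and not the lowest Ctrl library. Against a floor of 3 reads per NE library, the mean was at least 8.07-fold lower in NE, and at least 5.45-fold when Ctrl replicate 3 was left out. The gene passed the filter only through its Ctrl libraries and so had to differ. The floor of 3 reads covers counting error in the NE libraries only, and PCR copies were not told apart. The spread of 13 to 39 reads between the Ctrl libraries is not part of it.

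KRTAP2-3 is 1 of a group of genes with nearly identical coding sequences, and its reads are uncertain for that reason. Its coding sequence of 384 bases is identical to that of KRTAP2-4 at 383 positions (99.7%), and to that of KRTAP2-1 at 382. Of its stretches as long as a read, 31.8% also occur in KRTAP2-4. KRTAP2-4 had 3.14, 6.22 and 1.96 normalized counts in Ctrl replicates 1 to 3 and 0 in each NE library. The stretch below shows how little tells the 2 coding sequences apart. It holds the 1 coding base that differs, T333C from KRTAP2-3 to KRTAP2-4, in capitals, counted from 1 at the start codon. The coding strand (minus strand of hg38) is printed 5′ to 3′ for coding positions 313 to 353, at chr17:41059698-41059738 for KRTAP2-3 and chr17:41065493-41065533 for KRTAP2-4.
KRTAP2-3: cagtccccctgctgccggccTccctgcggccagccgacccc
KRTAP2-4: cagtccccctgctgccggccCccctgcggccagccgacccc

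The promoter of KRTAP2-3 is shown because this gene had no read in NE cells. The 100 bases before its start (RefSeq, GRCh38.p14, chr17:41060115-41060214, minus strand) hold a TATAAA motif, in capitals, whose first base lies 28 bases before the start.
KRTAP2-3 promoter: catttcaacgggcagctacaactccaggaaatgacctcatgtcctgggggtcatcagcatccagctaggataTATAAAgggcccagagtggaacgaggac

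RefSeq promoter windows, from 250 bases before to 50 after the start, were at hand for 2 of the 7 genes, KRT8 and KRTAP2-3. The entries for KRT7, KRT18, KRT19, KRT80 and KRT81 were missing. Both strands were searched for TATAAA, for the cAMP response element TGACGTCA and its shorter form TGACG, which is part of the longer one, for the AP-1 motif TGANTCA and for the GC box GGGCGG. These letters occur in 11.5%, 1.85%, 24.6%, 7.71% and 44.95% of 35116 promoter windows. KRTAP2-3 held the 1 TATAAA and none of the others, and the KRT8 window, which lies at a start upstream of the canonical transcript, held none. A match is a description of letters only.

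KRT19 (ENSG00000171345, chr17:41523617-41528308, minus strand), a simple epithelial type I chain, had 6, 9 and 6 reads in Ctrl replicates 1 to 3 and 4, 4 and 0 in NE replicates 1 to 3. Each NE library was below each Ctrl library, at a depth where single reads decide. KRT81 (ENSG00000205426, chr12:52285913-52291534, minus strand), a hair keratin, had 0, 4 and 6 reads in Ctrl and 1, 5 and 9 in NE. Its groups overlapped, and 27.0% of its stretches as long as a read also occur in its relative KRT86. KRT86 lay at 11.2 ± 0.743 normalized counts in Ctrl and 12.4 ± 3.05 in NE (log2 fold change 0.10, SE 0.444, adjusted p = 0.863 by limma). KRT19 and KRT81 were too low to be compared between the groups at this depth.

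GC content of the exons moved with the contrast across all genes, and its values stand beside the keratin differences here. The 2128 tested genes with exons of 55 to 60% GC had a median log2 fold change of -0.56 (quartiles -0.85 and -0.20), while the genes of 30 to 35% had a median of 0.81. All 5 tested genes described here, KRTAP2-3 included, fall between 55 and 60% GC. KRT18, KRT8 and KRT7 lay below the lower quartile of that class, and KRT80 above its upper quartile at 57.5% GC, the same GC content as KRT7. With a smooth trend on GC content removed from each library, the log2 fold change was -1.15 (SE 0.103) for KRT18, -0.59 (SE 0.113) for KRT8, -0.87 (SE 0.305) for KRT7 and 0.55 (SE 0.0878) for KRT80. The count that met the criteria of a call was then 2 of 5, KRT18 and KRTAP2-3, beside 346 lower and 549 higher among all genes. The part of GC content in these differences, as bias or as biology, was not tested.

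**Figure D3:**
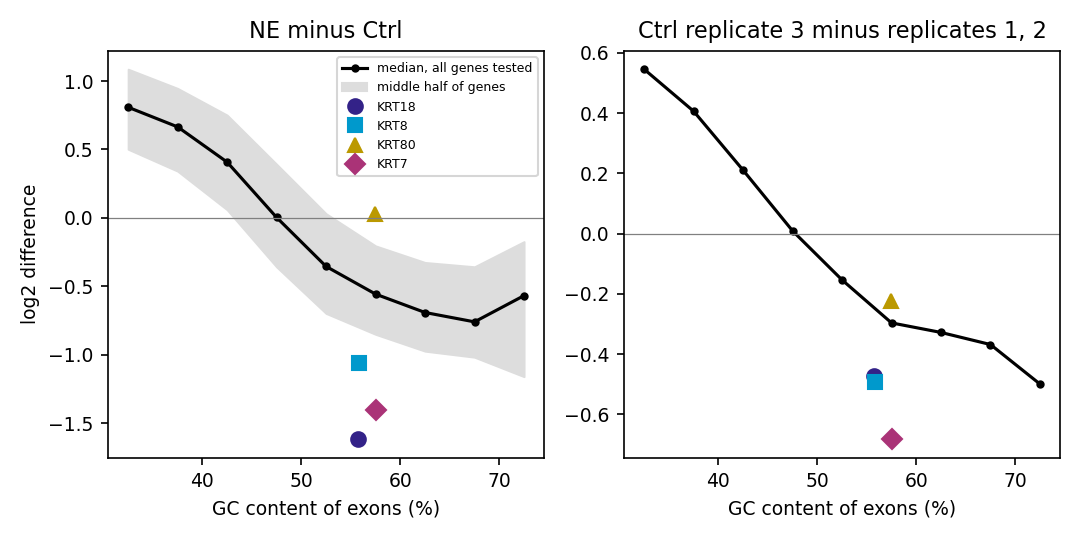
Log2 difference against exon GC content (%) for the median of all tested genes in classes of 5% and for KRT18, KRT8, KRT80 and KRT7; left, NE minus Ctrl with the quartiles as a band, right, Ctrl replicate 3 minus the mean of the other Ctrl libraries. KRT18 (-1.62), KRT7 (-1.40) and KRT8 (-1.06) lie below the band and KRT80 (0.03) above it.

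Ctrl replicate 3 differed from the other Ctrl libraries along the same axis. In the class of 55 to 60% GC its log2 difference from their mean had a median of -0.30. It was -0.68 for KRT7, -0.49 for KRT8, -0.47 for KRT18 and -0.22 for KRT80. Leaving this library out enlarged the differences of KRT7, KRT8 and KRT18. With GC content removed as well, KRT18 was at -1.23, KRT7 at -1.004, KRT8 at -0.67 and KRT80 at 0.57. Under quantile normalization KRT8 was at -0.78 and KRT18 at -1.28.

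**Figure D4:**
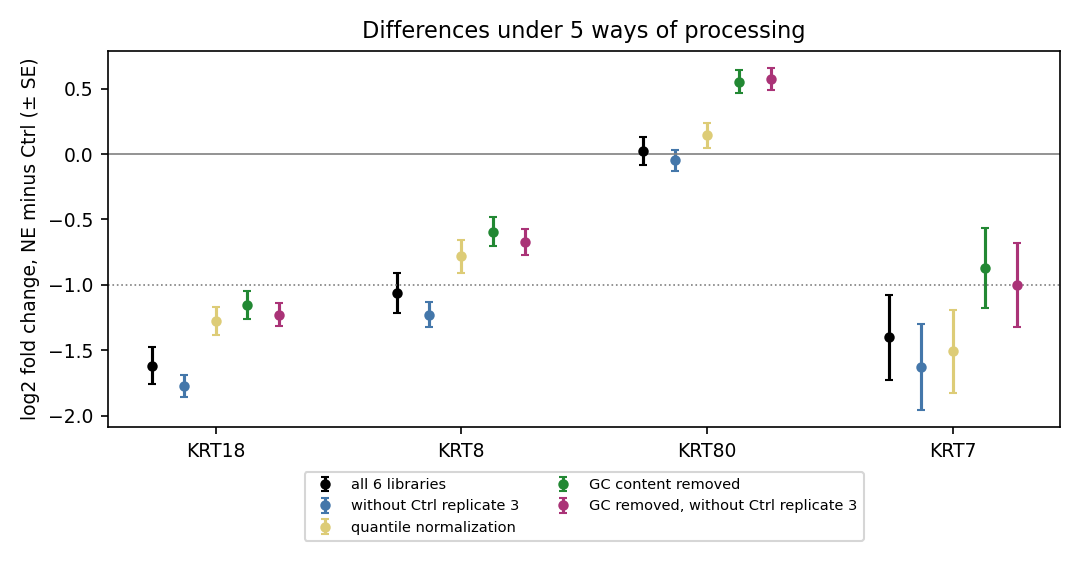
Log2 fold change, NE minus Ctrl (points, with SE as bars), of KRT18, KRT8, KRT80 and KRT7 under 5 ways of processing; the dotted line marks -1. KRT18 stays below -1 in all 5, KRT8 lies between -1.23 and -0.59, and KRT80 between -0.05 and 0.57.

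Outside these 7, keratins were few in NCI-H1299. Of 49 other keratins listed, 15 were in the table and 4 were tested. None of the 4 was called, beside 6.55% lower and 7.47% higher among all tested genes. KRT10, the type I chain of differentiating epidermis, had 188.7 ± 25.2 normalized counts in Ctrl and 108.0 ± 15.7 in NE (log2 fold change -0.80, SE 0.186, adjusted p = 0.00630 by limma), short of the fold criterion. KRT15, a type I chain of basal cells, had 326.7, 302.8 and 140.1 in Ctrl and 152.2, 117.2 and 153.5 in NE (log2 fold change -0.78, adjusted p = 0.0569 by limma). Without Ctrl replicate 3, the lone Ctrl library at NE level, KRT15 was called lower (-1.16, adjusted p = 3.53e-05 by limma). With GC content removed KRT10 was at -0.51 and KRT15 at -0.34 (adjusted p = 0.0393 and 0.326 by limma). With both changes KRT15 was at -0.65 (adjusted p = 0.00815 by limma), short of the fold criterion. The type I hair keratin KRT34 was at -1.02 (SE 0.615, adjusted p = 0.194 by limma). Its highest library was Ctrl replicate 3, and it was at -0.52 without that library and at 0.0020 with GC content removed as well. None of the 4 other keratin-associated protein genes in the table reached the minimum mean.

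Pseudogenes can take reads of their parent gene. Of 27 keratin pseudogenes and antisense genes in the table, a total of 3 were tested, and 1 was called, beside 6.55% lower among all tested genes. KRT8P3 fell from 27.0 ± 5.45 to 8.97 ± 2.51 normalized counts (log2 fold change -1.50, SE 0.406, adjusted p = 0.0132 by limma). Its NE mean alone was under the filter, and the call was lost without Ctrl replicate 1, when the list held 0. KRT8P12 was at 433.9 ± 36.2 in Ctrl and 534.0 ± 12.2 in NE (log2 fold change 0.30, adjusted p = 0.0603 by limma), opposite in sign to KRT8. It was at 0.37 without Ctrl replicate 3 and at 0.81 with GC content removed (adjusted p = 0.00697 and 0.00246 by limma). With both changes it was at 0.97, still short of the fold criterion. Of the KRT8 stretches 0.964% occurred in another gene, while KRT19 and KRT80 shared none.

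Among the other intermediate filament genes, 13 were in the table and 9 were tested, with 1 called lower and 1 higher, beside 6.55% and 7.47% of all tested genes. LMNA, which encodes the A-type lamins of the nuclear lamina, fell from 29062 ± 5202 to 12598 ± 1168 normalized counts (log2 fold change -1.19, SE 0.144, adjusted p = 0.000301 by limma). NEFL, the neurofilament light chain, had 8.38, 1.04 and 0 normalized counts in Ctrl replicates 1 to 3 and 45.5, 34.9 and 36.6 in NE replicates 1 to 3. It passed the filter only through its NE libraries and so had to differ, and its fitted log2 fold change of 3.89 ranged from 2.56 with a pseudocount of 5 to 5.30 with one of 0.1. VIM lay at a log2 fold change of -0.38 (SE 0.139, adjusted p = 0.0462 by limma), under the fold criterion, and at -0.26 (adjusted p = 0.0603 by limma) without Ctrl replicate 3. The median of the 9 was -0.35, and -0.08 with GC content removed, when LMNA was at -0.63. Without Ctrl replicate 3, 2 of the 9 were called lower.

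The next list holds genes that tie keratin filaments to the cell surface. Of 20 desmosome, plakin and hemidesmosome genes in the table, a total of 16 were tested, and 6 were called lower and 0 higher, beside 6.55% and 7.47% of all tested genes, with a list median of -0.23. COL17A1, a hemidesmosomal collagen, fell from 456.9 ± 73.2 to 144.0 ± 25.1 normalized counts (log2 fold change -1.66, SE 0.184, adjusted p = 0.000216 by limma). PPL, the plakin periplakin, fell from 1017 ± 176.7 to 332.7 ± 33.2 (log2 fold change -1.60, SE 0.156, adjusted p = 0.000130 by limma). PLEC, the plakin plectin, was called at -1.24, the hemidesmosomal tetraspanin CD151 at -1.18 and the plakoglobin gene JUP at -1.10, which was -0.96 and not called without Ctrl replicate 2. ITGB4, the integrin chain of hemidesmosomes, was the sixth at -1.06. It is named after its values were seen, as are the uncalled genes that follow. The plakin genes DST and MACF1 were at 0.60 and -0.15 (adjusted p = 0.00170 and 0.236 by limma). The integrin gene ITGA6 was at -0.32 (adjusted p = 0.0506 by limma). DST was short of the fold criterion only. With GC content removed DST was at 0.04, MACF1 at -0.45 and ITGA6 at -0.72. The desmosomal genes DSP, DSG2 and DSC2 were at 0.24, 0.47 and 0.68 (adjusted p = 0.143, 0.0254 and 0.0158 by limma). None of them was called, DSG2 and DSC2 for the fold criterion only. With GC content removed DSP, DSG2 and DSC2 were at 0.14, -0.10 and 0.10. The desmosomal plakophilin genes PKP2 and PKP3 were at 0.18 and -0.91 (adjusted p = 0.320 and 0.000799 by limma). Neither of them was called, PKP3 for the fold criterion only. With GC content removed PKP2 and PKP3 were at -0.11 and -0.23. With GC content removed 2 of the 16 were called lower, beside 346 lower and 549 higher among all genes. COL17A1 was then at -1.30 and PPL at -1.03. The list median was then -0.43.

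Of 10 tested genes for factors known to act on keratin promoters, 2 were called lower and 3 higher, beside 6.55% and 7.47% of all tested genes, and the list median was 0.59. JUN, an AP-1 subunit, fell from 2247 ± 181.6 to 529.3 ± 29.2 normalized counts (log2 fold change -2.08, SE 0.111, adjusted p = 6.35e-06 by limma). ETS1 fell as well (-1.13, SE 0.103, adjusted p = 0.000102 by limma). ETS2 at 1.23, TFAP2A, the AP-2 alpha factor, at 1.22 and the AP-1 subunit FOS at 1.16 rose, with adjusted p of 0.000127, 0.000174 and 0.00259 by limma. These calls numbered the same with GC content removed, 2 lower and 3 higher, beside 346 lower and 549 higher among all genes. The list median was then 0.32.

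Of 9 tested epithelial surface and junction genes 1 was called lower and none higher, beside 6.55% and 7.47% of all tested genes, with a median of -0.46, and of -0.11 with GC content removed. SPINT2, a serine protease inhibitor of epithelial surfaces, fell from 169.5 ± 29.0 to 86.4 ± 28.6 normalized counts (log2 fold change -1.01, SE 0.274, adjusted p = 0.0131 by limma). The count was 4 when Ctrl replicate 3 was left out, and 0 when Ctrl replicate 2 or NE replicate 1 was. It was 2 without NE replicate 2 or without NE replicate 3. Of 5 squamous and cornification genes in the table, a total of 2 were tested and 1 met the criteria of a call, beside 6.55% lower among all tested genes. CNFN was at -0.76 (adjusted p = 0.0521 by limma) and not called. The other was SFN, the 14-3-3 sigma gene, with 15.7, 32.1 and 12.7 normalized counts in Ctrl and 3.95, 0 and 4.57 in NE. SFN passed the filter only through its Ctrl libraries and so had to differ, and its fitted log2 fold change of -2.70 ranged from -3.92 with a pseudocount of 0.1 to -1.66 with one of 5. It no longer met the criteria without Ctrl replicate 2, when the list held 0.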

How the data were processed

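RNA of 6 NCI-H1299 libraries, 3 Ctrl and 3 NE, was extracted with TRIzol and made into libraries with a NEBNext Ultra kit. Samples were grouped by the sample labels. The authors aligned reads to hg38 with Hisat2 2.0.5 and counted them with featureCounts 1.5.0-p3. The study's methods describe FPKM, but the signal deposited by the authors holds the counts of genes, each scaled by the size factor of its library: 100% of values came out as whole reads (tolerance 0.01 read), 16852751 to 17979206 per library, which limits the precision of genes with few reads. All 26025 genes of the table were read, of which 25813 matched GENCODE v44.

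The 7 genes and all lists were chosen with earlier results of these data known. limma 3.58.1 (R 4.3.3; lmFit, eBayes with trend) was run on log2(value + 1) for 15013 genes averaging 10 or more, with Benjamini-Hochberg adjustment; a fold change on this scale understates that of low genes. In data simulated for the NE against Ctrl comparison over 15013 genes, 96.5% of 198 genes changed by 1.5 (log2) were recovered, with 1 false call. The simulation gave all genes the same dispersion and held no GC trend and no deviating library. It therefore gives no rate of false calls for the real data. edgeR 4.0.16 on the recovered reads called 1057 genes higher and 1096 lower; DESeq2 1.42.0 called 1099 and 1049. FPKM, exon length and GC content used merged GENCODE v44 exons, and GC content was removed with a spline of 5 degrees of freedom per library. Other alternatives were pseudocounts of 0.1 and 5, a mean of at least 1, no filter, quantile normalization, no fold criterion, a replicate block and leaving out each library. Leaving out Ctrl replicate 3 with GC content removed was added after seeing the data.

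Named were the 7 genes, up to 5 called genes per list by size of change (where none was called, the gene of highest mean), the markers, genes that could share reads with the 7, and the 3 genes most like each tested one. Other names were chosen after their values were seen. A marker that this rule names is not reported here.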

Additional observations from a re-analysis of the deposited data

How the results depend on the processing

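Read depth limits KRT19, KRT81 and KRTAP2-3, whose counts are a few reads, and 3 libraries per group limit all values. KRT7, KRT8 and KRT18 kept their direction under every alternative run, from -1.63 to -0.87, from -1.23 to -0.59 and from -1.78 to -1.15 on the log2 scale, and KRT80 lay between -0.05 and 0.57. With GC content removed, 346 genes were called lower and 549 higher, 2 of the 5 tested keratins and KRTAP2-3 lower, 0 pseudogenes or antisense genes, 0 other filament genes, 2 linker genes, 0 epithelial genes lower and 1 higher, and 0 squamous genes. With Ctrl replicate 3 also left out, the calls were 528 lower and 635 higher over all genes, 0 filament genes lower and 2 higher, 2 linker, 0 epithelial and 0 squamous genes lower. Without the fold criterion 3828 genes were lower and 3693 higher, with 2 pseudogenes or antisense genes, 1 type I keratin, 4 filament and 2 epithelial genes lower, and 2 filament genes, 3 linker genes and 6 promoter factors higher. A minimum mean of 1 gave 2 filament genes lower, and with it or with no filter 1 pseudogene or antisense gene and 1 type II keratin (KRT83) were higher. Quantile normalization gave 3 linker and 2 epithelial genes lower, a pseudocount of 5 gave 0 epithelial genes and one of 0.1 gave 0 squamous genes.

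Leaving out 1 library at a time gave 777 to 1512 genes lower and 816 to 1609 higher, 3 to 4 of the described genes lower, 0 to 1 pseudogene or antisense gene, 0 to 1 squamous gene, 0 to 1 type I keratin, 1 to 2 filament genes and 0 to 4 epithelial genes lower; the highest all-gene counts were without Ctrl replicate 3. KRT86 changed sign to -0.076 with quantile normalization and -0.024 without NE replicate 3, within a leave-one-out range of -0.024 to 0.31. PECAM1 changed sign to 0.041 with GC content removed, 0.068 without Ctrl replicate 1 and 0.24 without NE replicate 2, within a range of -0.32 to 0.24. The causes were not tested.

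A replicate block called 924 genes lower and 1049 higher and 0 squamous genes. The replicate numbers share only a number: same-numbered libraries deviated with correlations of -0.163, 0.0799 and -0.151.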

Other observations

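KRT83, a type II hair keratin encoded beside KRT81 and KRT86, was under the minimum mean and is named after its values were seen. It had 2.09, 0 and 1.96 normalized counts in Ctrl replicates 1 to 3 and 9.88, 15.5 and 13.7 in NE replicates 1 to 3, with every NE library above every Ctrl library.

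Within 250 kb of the KRT8 and KRT18 genes 7 other genes were tested, with log2 fold changes from -1.13 to 0.19. The lowest was TNS2, which encodes a tensin of focal adhesions (log2 fold change -1.13, SE 0.139, adjusted p = 0.000326 by limma). It was the 1 of the 7 called lower, beside 6.55% of all tested genes. IGFBP6 at -0.98 and SPRYD3 at -0.85 fell short of the fold criterion (adjusted p = 0.0183 and 0.00116 by limma). None was called higher, and EIF4B, a translation initiation factor gene, was at 0.11 (adjusted p = 0.343 by limma). CSAD was at 0.19, ZNF740 at 0.07 and the noncoding gene AC068888.1 at -0.60.

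The tested genes most like each keratin by Pearson's r of log2(normalized count + 1) over the 6 libraries, which share the group difference and the GC trend, were NFKB2, RAB15 and PVR for KRT8 (r of 0.999 for each) and GUCD1, BCAT2 and YARS for KRT18 (r of 0.999 for each). For KRT7 they were NME2, PRKAR1B and ASB6 (r of 0.997 for each), and for KRTAP2-3 NOG, MRPL41 and SNX17 (r of 0.999 for each). Such values were common: 1384, 1822, 1140 and 1006 genes had an r over 0.95 with KRT8, KRT18, KRT7 and KRTAP2-3. KRT80 had 26 such genes, led by TRAK1 (0.992), DYNLL2 (0.991) and ZNF609 (0.989).

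Of the 3 mesenchymal markers, CDH2 and FN1 were at log2 fold changes of 0.64 (adjusted p = 0.00172 by limma) and 0.77 (adjusted p = 0.000458 by limma) and VIM at -0.38 (adjusted p = 0.0462 by limma), none past the fold criterion. With GC content removed CDH2 was at 0.19 (adjusted p = 0.131 by limma), FN1 at 0.52 (adjusted p = 0.00193 by limma) and VIM at -0.20 (adjusted p = 0.374 by limma).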
